A study of Mus musculus with 22 samples.

Results

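Neuropeptide Y and the receptors that bind it were followed as 4 genes, Npy, Npy1r, Npy2r and Npy5r, in sorted nuclei of the mouse hippocampus after kainate. The genes were picked by symbol, as the Ensembl identifiers of the count table that GENCODE assigns to these names. The rule uses no measured value, although the genes were proposed with earlier results of these data known. They are 4 of the 53379 genes in the table, and each passed the filter on low counts that left 40714 genes for testing. The question was whether their expression differed between kainate and sham mice in neurons and in glia, and between both cell fractions.

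Adult male C57/BL6N mice, acquired at 8 weeks of age and acclimatised for 4 weeks, received kainate, a glutamate receptor agonist that starts status epilepticus, above the right hippocampus. Sham mice received NaCl at the same place. The left hippocampus, which lies opposite the injection, was taken after 24 h. Hippocampi of 8 mice per treatment were pooled, by 4 or by 2, into 3 samples, so that a replicate is a pool of mice. P-values measure the spread between pools, or, in fits that pair libraries, the spread left after the pairing. Nuclei were sorted by staining for the nuclear protein NeuN into NeuN+ nuclei, here called neurons, and NeuN– nuclei, here called glia. The mRNAseq libraries were 3 of kainate neurons, 3 of sham neurons, 3 of kainate glia and 2 of sham glia (replicates 1 and 3). For kainate glia replicate 2 and for replicate 1 of sham glia, 0.05 ng RNA and 15 PCR cycles were used, and 1 ng and 10 cycles for the others. The RNA is nuclear, and NeuN does not mark every neuron, which limits the NeuN– fraction as a sample of glia.

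Neuropeptide Y is an amidated peptide that is released from dense-core vesicles, in the hippocampus mostly by GABAergic interneurons. Its receptors are coupled to inhibitory G proteins. The Y1 receptor, encoded by Npy1r, is largely postsynaptic, the Y2 receptor, encoded by Npy2r, is largely presynaptic and dampens transmitter release, and the Y5 receptor, encoded by Npy5r, often shares cells with Y1. The peptide is known as an endogenous brake on hippocampal seizures, and granule cells of the dentate gyrus can start to make it after seizures.

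In mm10, Npy (ENSMUSG00000029819.6) spans chr6:49822710-49829507 on the plus strand, Npy2r (ENSMUSG00000028004.12) spans chr3:82538383-82548084 on the minus strand. Npy5r (ENSMUSG00000044014.9) spans chr8:66679965-66688128 on the minus strand and Npy1r (ENSMUSG00000036437.6) spans chr8:66697192-66706792 on the plus strand. These receptor genes are neighbours that point away from each other, with 9063 bp between them. No other annotated gene overlaps any of the 4, so reads from the opposite strand of another gene do not enter their counts.

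The 250 bases upstream of the RefSeq start sites are shown for Npy and Npy2r, since the level of the ligand rose and that of this receptor fell in both fractions once libraries were paired. The sequences are of GRCm38.p6, the same build as mm10, and run 5′ to 3′ on the strand of the gene, chr6:49822460-49822709 for Npy and chr3:82548086-82548335 for Npy2r. Capitals mark the GC box GGGCGG.
Npy: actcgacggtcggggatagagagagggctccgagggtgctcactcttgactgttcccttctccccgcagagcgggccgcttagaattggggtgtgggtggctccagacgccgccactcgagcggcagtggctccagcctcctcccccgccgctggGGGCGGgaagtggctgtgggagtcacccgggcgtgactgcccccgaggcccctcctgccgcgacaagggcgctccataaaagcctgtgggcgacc
Npy2r: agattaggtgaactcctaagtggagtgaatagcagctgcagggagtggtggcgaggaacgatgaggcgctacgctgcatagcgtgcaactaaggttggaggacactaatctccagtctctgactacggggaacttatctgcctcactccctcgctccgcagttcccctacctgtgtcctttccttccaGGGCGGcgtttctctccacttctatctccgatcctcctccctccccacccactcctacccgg
The GC content of the window was 69.2% for Npy and 56.8% for Npy2r. Both windows held 1 GC box, with its first base 95 bases before the start in Npy and 62 bases before it in Npy2r. On either strand, 32.7% of 32851 RefSeq promoter windows of this length held that motif. The cAMP response element TGACGTCA, its core TGACG and the AP-1 motif TGANTCA were in neither window, and 1.55%, 17.8% and 6.75% of all windows held them. The TATAAA box, held by 12.4% of windows, was not in either. Of the other receptors, Npy1r had 1 AP-1 motif, 231 bases before its RefSeq start, and Npy5r had 1 E-box CACGTG, 40 bases before it, a motif in 6.02% of windows. A match or its absence describes only the letters of these windows.

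CPM values are read counts brought to one library size by TMM factors, and a gene was called at a false discovery rate (FDR) below 0.25. Total counts ranged from 12058875 to 45428465 per library, and the lowest raw count of any of the 4 genes in a library was 37. The sorting marker Rbfox3, which encodes NeuN, averaged 229 CPM ± 43.0 (SD, n = 3) in sham neurons and 31.2 CPM ± 6.99 (SD, n = 2) in sham glia. Of the markers of other cells, Aldh1l1 (astrocytes), Cx3cr1 (microglia), Mbp (oligodendrocytes), Pdgfrb (pericytes) and Pecam1 (endothelial cells) had a higher mean CPM in glia than in neurons under both treatments. The summed CPM of 5 neuronal markers in the glia fraction was 14.0% of that in neurons in sham and 14.5% after kainate, and none of these markers was at 0 in a glia library. Replicate 1 stood apart in both fractions. In neurons its neuronal marker sum was 6539 CPM after kainate and 7213 CPM in sham, against 3324 to 5006 CPM in the other 4 neuron libraries. In glia its sum of 5 oligodendrocyte markers was 25862 CPM after kainate and 36814 CPM in sham, against 4631 to 11065 CPM in the other 3.

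Npy was higher after kainate in both fractions. In kainate neurons it measured 126, 60.9 and 59.9 CPM in replicates 1, 2 and 3. In sham neurons it measured 34.4, 7.98 and 6.83 CPM in the same order. Each kainate library lay above each sham library, and replicate 1 was the highest of its group under both treatments. The mean was 82.3 CPM ± 38.0 (SD, n = 3) after kainate and 16.4 CPM ± 15.6 (SD, n = 3) in sham. The fitted difference was 2.33 on the log2 scale (SE 0.62, 95% interval 0.99 to 3.67), a 5.03-fold higher level. By edgeR's quasi-likelihood test this ranked 166 of all genes tested with FDR = 0.548, so Npy was not called. Without sham neurons replicate 1 the difference was 3.47 and was called (edgeR FDR = 0.118). Libraries with the same replicate number deviated together from their group means, and with the replicate number as a block the difference was 2.64 (SE 0.24) with FDR = 1.02e-11. In that fit Npy rose, but its p-value rests on 3 residual degrees of freedom and 48.0 prior ones estimated over all genes. The same-numbered libraries differed by 1.87, 2.93 and 3.13 on the log2 CPM scale, which makes Npy higher after kainate in 3 of 3 pairs. Summed markers of other cells moved with kainate in the neuron fraction too. The sum of 5 microglia markers was 31.9, 39.5 and 49.1 CPM in kainate neurons against 28.8, 25.1 and 29.0 CPM in sham neurons, without overlap. By group mean, Csf1r (23.6 against 10.7 CPM), C1qa (5.80 against 4.64 CPM) and Cx3cr1 (5.52 against 5.30 CPM) were higher after kainate. P2ry12 (2.02 against 3.24 CPM) and Tmem119 (3.24 against 3.75 CPM) were lower. The sum of 5 astrocyte markers was 68.7, 119 and 218 CPM against 66.6, 66.1 and 124 CPM, higher in 3 of 3 pairs. Its members were split by group mean. Gfap (79.2 against 21.2 CPM), Aqp4 (11.5 against 4.02 CPM) and Aldh1l1 (9.25 against 5.99 CPM) were higher after kainate. Slc1a3 (26.6 against 39.9 CPM) and Gja1 (8.84 against 14.5 CPM) were lower. The part of these markers in the neuron values of the 4 genes was not tested.

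In glia, Npy measured 17.8, 9.91 and 16.6 CPM in the 3 kainate libraries and 6.39 and 2.28 CPM in sham replicates 1 and 3. The groups did not overlap here either. The log2 difference was 1.77 (SE 0.72, 95% interval 0.23 to 3.32), a 3.42-fold higher level, with FDR = 1.00 in edgeR's quasi-likelihood test. Without sham glia replicate 1 it was 2.72. With the replicate number as a block the difference was 2.14 (SE 0.31) with FDR = 3.05e-06, and Npy rose. Kainate glia replicate 2 has no sham partner of its number and adds nothing to this difference under the block. In the glia pair numbered 1, the sham library had 0.05 ng RNA and 15 PCR cycles and the kainate library 1 ng and 10. In that pair RNA input and treatment cannot be told apart. Within both same-numbered glia pairs the summed markers of astrocytes, microglia, oligodendrocytes and their precursors were lower after kainate. The astrocyte markers were split by group mean. Slc1a3 (513 against 1057 CPM) and Gja1 (154 against 435 CPM) were lower after kainate. Gfap (581 against 160 CPM), Aqp4 (148 against 127 CPM) and Aldh1l1 (35.0 against 33.4 CPM) were higher. The oligodendrocyte sum was 25862 against 36814 CPM in replicate 1 and 4631 against 8319 CPM in replicate 3, and the microglia sum was 1379 against 2629 CPM and 463 against 503 CPM. The part of these shifts in the glia values of Npy and Npy2r was not tested. Mean Npy levels ran in the order kainate neurons, sham neurons, kainate glia (14.8 CPM ± 4.26, SD, n = 3) and sham glia (4.34 CPM ± 2.91, SD, n = 2). Sham neurons and kainate glia, neighbours in this order, overlapped.

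**Figure D1:**
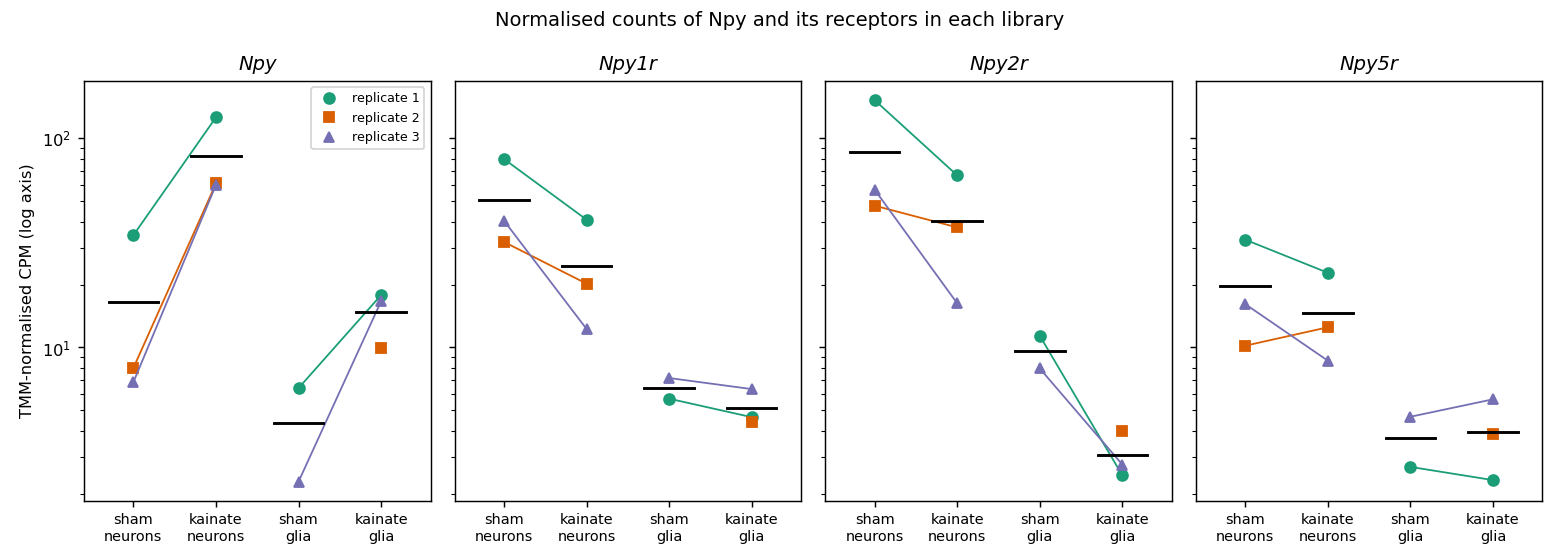
Normalised counts (TMM-scaled CPM, log axis) of the 4 genes in each of the 11 libraries, by group on the horizontal axis. Thin lines join libraries with the same replicate number within a fraction, and black bars are group means. Npy is higher in each kainate library than in each sham library of its fraction, while Npy1r in neurons and Npy2r in both fractions are lower after kainate in each joined pair.

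Markers of GABAergic interneurons, the main source of the peptide, are given beside Npy. The summed CPM of 3 of them, Gad1, Gad2 and Slc32a1, which make GABA or load it into vesicles, ran from 247 to 411 CPM in kainate neurons and from 146 to 345 CPM in sham neurons, and was higher after kainate in 3 of 3 same-numbered pairs (411 against 345, 320 against 186 and 247 against 146 CPM). In glia this sum was 81.1 to 95.1 CPM after kainate and 42.7 to 71.2 CPM in sham, and was higher after kainate in both pairs. The 3 markers belong to a list of 16 interneuron genes that did not move as 1. Without the block its log2 differences ran from -0.65 to 0.55 in neurons (median 0.10) and from -1.08 to 0.85 in glia (median -0.13). None of the 3 markers was at 0 in any library, and the part of their sum in the Npy values was not tested. Per 100 CPM of this sum, Npy measured 30.7, 19.0 and 24.3 CPM in kainate neurons and 9.97, 4.29 and 4.69 CPM in sham neurons. The groups stayed apart on this scale as well. In glia Npy per 100 CPM of the sum was 18.7, 11.3 and 20.5 CPM after kainate and 8.98 and 5.34 CPM in sham. These quotients were chosen after the values were seen and carry no test. In bulk samples, a change in the number of cells of a type and a change in RNA per cell cannot be told apart.

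Npy1r, the Y1 receptor, was lower in neurons after kainate. It measured 40.8, 20.2 and 12.2 CPM in kainate neurons, replicates 1 to 3, and 79.6, 32.0 and 40.4 CPM in sham neurons. Kainate replicate 1 lay above sham replicates 2 and 3, so the groups overlapped, but each kainate library lay below the sham library of its number. The log2 difference was -1.05 (SE 0.46, 95% interval -2.04 to -0.06), a 2.08-fold lower level, with FDR = 1 in edgeR's quasi-likelihood test. Leaving out replicate 1 of the kainate neurons gave -1.64, and leaving out that of the sham neurons gave -0.57. With the replicate number as a block Npy1r fell by 1.11 on the log2 scale (SE 0.23) with FDR = 0.000813. In glia it measured 4.64, 4.41 and 6.32 CPM after kainate and 5.69 and 7.14 CPM in sham. These ranges overlapped, and the log2 difference was -0.32 (95% interval -1.43 to 0.79), with FDR = 1.00 without the block and 0.970 with it.

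Npy2r, the Y2 receptor, was lower after kainate in both fractions. In kainate neurons it measured 66.5, 37.5 and 16.3 CPM, and in sham neurons 152, 47.7 and 56.8 CPM. Again replicate 1 was the highest of both groups and the groups overlapped, while within each number the kainate library was lower. The log2 difference in neurons was -1.10 (SE 0.53, 95% interval -2.23 to 0.04) with FDR = 1 in edgeR's quasi-likelihood test. Without sham neurons replicate 1 this unblocked difference was -0.38. With the block it was -1.11 (SE 0.22) with FDR = 0.000617. In glia Npy2r measured 2.45, 4.004 and 2.75 CPM after kainate against 11.4 and 7.93 CPM in sham. These groups did not overlap. The log2 difference in glia was -1.65 (SE 0.59, 95% interval -2.91 to -0.38), a 3.13-fold lower level, with FDR = 1.00 by edgeR. With the replicate block it was -1.84 (SE 0.31) with FDR = 3.61e-05. The glia pair numbered 1 in this fit differs in RNA input, as given for Npy. Npy2r thus fell in both fractions in the fit with the block and passed in neither in the unblocked fit to all 11 libraries.

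Npy5r, the Y5 receptor, showed no call in either fraction, with or without the block. In neurons it measured 22.8, 12.5 and 8.65 CPM after kainate and 32.8, 10.2 and 16.1 CPM in sham. It was lower after kainate in 2 of 3 same-numbered pairs and higher in replicate 2. The log2 difference was -0.43 with a 95% interval from -1.53 to 0.67, which holds the -1.05 of Npy1r. With the block it was -0.37 with a 95% interval from -0.90 to 0.15, which overlaps that of Npy1r in the same fit (-1.56 to -0.66). Without sham neurons replicate 1 the unblocked difference turned to 0.15. In glia Npy5r measured 2.32, 3.83 and 5.65 CPM after kainate and 2.68 and 4.66 CPM in sham, with a log2 difference of 0.10 (95% interval -1.15 to 1.36). It turned to -0.45 without kainate glia replicate 3, to -0.21 without sham glia replicate 1 and to -0.20 without both low-input libraries. Npy5r and its neighbour Npy1r were not compared by a test.

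Of the 4 genes, edgeR called 0 in neurons, where 0.165% of all genes were called, and 0 in glia, where 0.101% were. At an unadjusted p below 0.05 there were 2 in neurons (Npy and Npy1r) and 2 in glia (Npy and Npy2r), beside 849 genes (2.09% of those tested) and 834 genes (2.05%). DESeq2's Wald test called 1 in neurons, Npy, and 0 in glia, against 0.884% and 0.624% of all genes. With neurons fitted on their own, as the study did, edgeR called Npy (FDR = 0.186), against 1.29% of genes. Without all 4 libraries numbered 1, edgeR called 3 in neurons (Npy, Npy1r and Npy2r) and 1 in glia (Npy), against 2.28% and 1.08% of genes. With the replicate block 3 of the 4 were called in neurons, against 5.09% of all genes, and 2 of the 4 in glia, against 5.79%. By direction, the block fit called 3.19% of all genes as higher and 1.90% as lower in neurons, and 2.93% and 2.86% in glia. Groups did not overlap for 1 of the 4 in neurons, against 7.86% of all genes, and for 2 of the 4 in glia, against 8.22%. The median log2 difference over the 4 genes was -0.74 in neurons and -0.11 in glia, beside -0.01 and 0.02 over all genes tested.

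The kainate effect itself was compared between the fractions as an interaction. For Npy the effect in neurons minus that in glia was 0.56 on the log2 scale (SE 0.90, 95% interval -1.38 to 2.49). Its direction turned to -0.38 without sham glia replicate 1 and to -0.60 without both low-input libraries, and it was 1.70 without sham neurons replicate 1. For Npy1r this was -0.73 (95% interval -2.23 to 0.76), for Npy2r 0.55 (-1.14 to 2.24) and for Npy5r -0.53 (-2.20 to 1.14). Npy2r turned to -0.022 with kainate neurons replicate 1 left out and was 1.26 with sham neurons replicate 1 left out, which turned Npy5r to 0.048. By edgeR 0 of the 4 were called, where 0.00246% of all genes were. At an unadjusted p below 0.05 there were 0 of the 4, beside 370 of 40714 genes. DESeq2 called 0 of the 4, beside 31 of 40714 genes. With the block 0 of the 4 were called against 1.94% of all genes, and Npy1r had the lowest FDR of the 4, at 0.558 in edgeR. Its interaction with the block was -0.88 (95% interval -1.62 to -0.13), the 1 of the 4 with an unadjusted p below 0.05 in that fit. A difference in the kainate effect between neurons and glia passed the FDR threshold for none of the 4 in either fit.

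**Figure D2:**
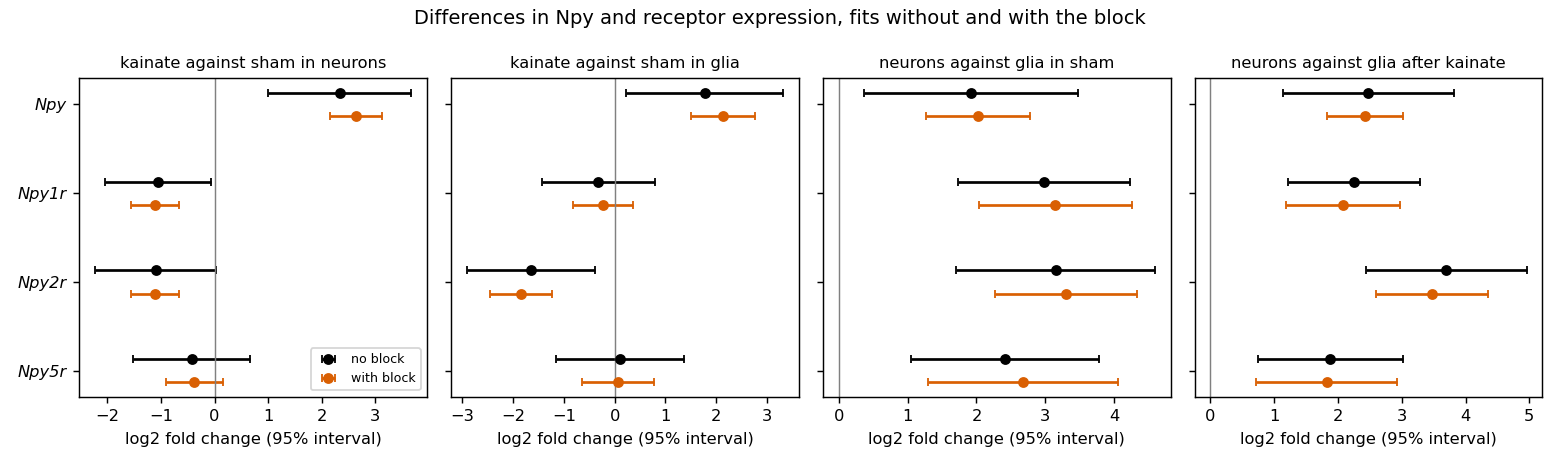
Fitted log2 fold changes of the 4 genes with 95% intervals in the 4 comparisons, without a block (black) and with the replicate number or the pool as a block (orange). The 2 left panels give kainate over sham and the 2 right panels neurons over glia. In neurons the interval of Npy lies between 0.99 and 3.67 without the block, and in the right panels every interval lies above 0.

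All 4 genes were higher in neurons than in glia. In sham mice the log2 difference was 1.92 for Npy (SE 0.72, FDR = 0.148), 2.98 for Npy1r (SE 0.58, FDR = 0.00502), 3.15 for Npy2r (SE 0.67, FDR = 0.00821) and 2.41 for Npy5r (SE 0.63, FDR = 0.0274), by edgeR's quasi-likelihood test. All 4 were called as higher, against 9.11% of all genes, and 4 of 4 had groups that did not overlap, against 14.4%. With the pool of mice as a block the 4 were called as well, against 18.3% of genes. The call of Npy in sham rested on single libraries. Without sham neurons replicate 1 its log2 difference was 0.78 (FDR = 0.660) and without sham glia replicate 3 it was 1.35 (FDR = 0.363), by edgeR. Without sham neurons replicate 1 the difference of Npy2r was 2.44 and that of Npy5r 1.84, and both were still called (edgeR FDR = 0.0233 and 0.0998).

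After kainate the log2 difference between neurons and glia was 2.48 for Npy (SE 0.63, FDR = 0.0199), 2.25 for Npy1r (SE 0.48, FDR = 0.00747), 3.70 for Npy2r (SE 0.58, FDR = 0.00144) and 1.88 for Npy5r (SE 0.53, FDR = 0.0364), by edgeR. Again 4 of 4 were called as higher, against 11.3% of genes, or 21.4% with the pool block, and 4 of 4 did not overlap, against 14.8%. The fold was largest for Npy2r, whose neuron level was 12.995 times its glia level.

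The share of neuronal signal that reached the glia fraction can be set beside these values. In sham, the glia mean as a percentage of the neuron mean was 26.4% for Npy, 12.7% for Npy1r, 11.3% for Npy2r and 18.6% for Npy5r, with 13.6% for Rbfox3. After kainate it was 18.0% for Npy, 20.98% for Npy1r, 7.65% for Npy2r and 26.9% for Npy5r, with 17.0% for Rbfox3. The members thus lay on both sides of the neuronal marker. What part of the glia values came from neuronal nuclei in the NeuN– gate was not tested.

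Per length of the exons, Npy was the most abundant of the 4 in kainate neurons, with 145 RPKM ± 67.1 (SD, n = 3). Its receptors there averaged 11.9 RPKM for Npy2r, 7.07 RPKM for Npy1r and 5.73 RPKM for Npy5r. In sham neurons the means were closer, with 29.0 RPKM ± 27.6 for Npy, 25.3 RPKM ± 17.1 for Npy2r, 14.7 RPKM ± 7.37 for Npy1r and 7.71 RPKM ± 4.58 for Npy5r (SD, n = 3). Npy and Npy2r did not differ there beyond their spread. In each of the 3 sham neuron libraries Npy lay below the sum of its receptors.

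The quotient of Npy RPKM to the summed RPKM of the 3 receptors was 5.52, 4.93 and 9.02 in kainate neurons and 0.752, 0.516 and 0.347 in sham neurons. In glia it was 10.6, 4.42 and 6.05 after kainate and 1.86 and 0.646 in sham. The kainate libraries of a fraction lay above its sham libraries in each case. The quotient was formed after the values were seen, so no test was run on it.

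**Figure D3:**
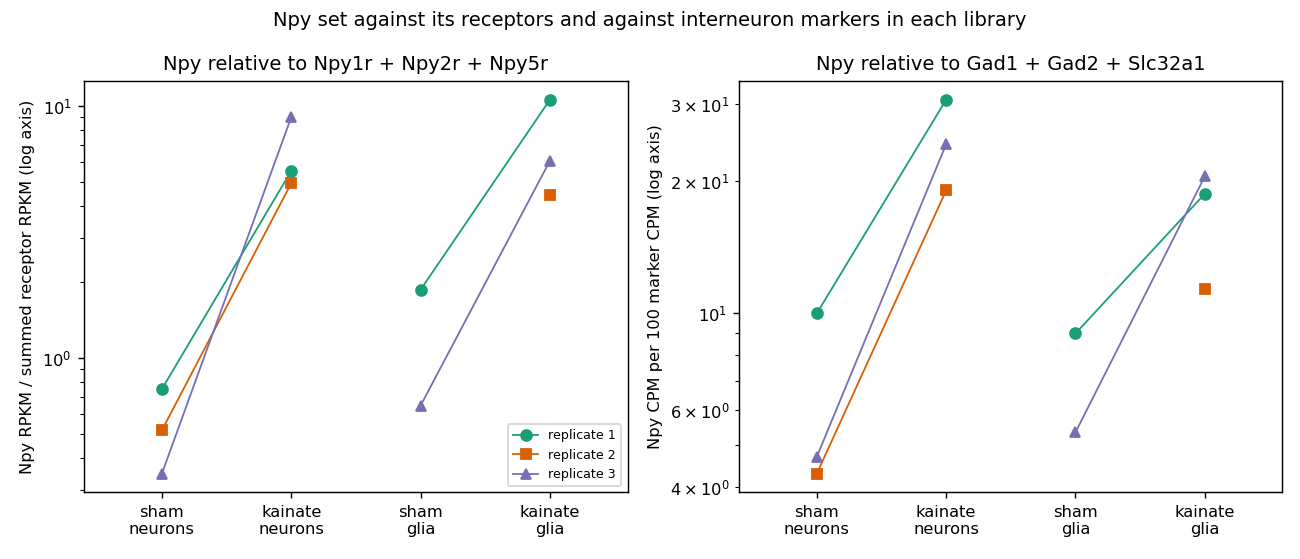
Npy set against its receptors and against interneuron markers in each of the 11 libraries, on log axes. Left, Npy RPKM over the summed RPKM of Npy1r, Npy2r and Npy5r; right, Npy CPM per 100 CPM of Gad1, Gad2 and Slc32a1 summed. Lines join libraries of the same replicate number. In neurons the left quotient runs from 0.347 to 0.752 in sham and from 4.93 to 9.02 after kainate.

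The other genes of the family were close to absent. Pyy and Ppy, which encode the related peptides YY and pancreatic polypeptide, and Npy4r and Npy6r, which encode further Y receptors, had group means from 0.124 to 0.731 CPM. None of the 4 was called by edgeR in either fraction, with or without the block, and 0 had an unadjusted p below 0.05.

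Of 12 genes that make, store and release peptides, edgeR called 0 in neurons and 0 in glia, where 0.165% and 0.101% of all genes were called. At an unadjusted p below 0.05 there were 4 and 2 of the 12, beside 2.09% and 2.05% of all genes. With the block 4 rose and 1 fell in neurons, beside 3.19% and 1.90% of all genes. Those that rose in neurons were Chga (log2 difference 2.11, FDR = 4.32e-10) and Scg2 (1.68, FDR = 1.50e-08), both granins of dense-core vesicles, the prohormone convertase Pcsk1 (1.57, FDR = 7.71e-07) and the carboxypeptidase Cpe (0.53, FDR = 0.0982). Cadps2, a priming factor for vesicle release, fell by 1.09 on the log2 scale with the block (FDR = 0.000193). In glia Scg2 (1.99, FDR = 1.26e-07) and Chga (1.14, FDR = 0.00732) rose and Scg3 (-0.82, FDR = 0.0279) fell in the same edgeR fit, beside 2.93% and 2.86% of all genes. Pam, which amidates the end of the peptide, was not called in neurons or in glia. The median of the 12 without the block was 0.26 in neurons and -0.09 in glia. Of 5 peptidases that can cleave neuropeptide Y, among them Dpp4 and Xpnpep1, edgeR called 0 in either fraction, with or without the block, and 0 had an unadjusted p below 0.05.

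Downstream of the receptors, 14 genes of inhibitory G proteins and their effectors were listed. Rgs4, which speeds the shut-off of these G proteins, was the 1 gene of all lists that edgeR called without a block. Of all genes, 0.165% were called in neurons and 0.101% in glia. At an unadjusted p below 0.05 there were 2 of the 14 in neurons (Adcy1 and Rgs4) and 1 in glia (Rgs4), beside 2.09% and 2.05% of all genes. Rgs4 rose in neurons by 2.73 on the log2 scale (SE 0.48, FDR = 0.108), from a mean of 68.8 to 456 CPM. In glia its log2 difference was 1.80, which was not called without the block but was with it (1.66, FDR = 7.33e-05). With the block the adenylyl cyclase gene Adcy1 (-1.09, FDR = 2.98e-05) and the potassium channel gene Kcnj9 (-0.64, FDR = 0.0683) fell in neurons and the G protein gene Gnai1 (-0.97, FDR = 0.00543) fell in glia, by edgeR. These counts with the block are 1 higher and 2 lower of 14 in neurons and 1 higher and 1 lower in glia, beside 3.19% higher and 1.90% lower of all genes in neurons and 2.93% and 2.86% in glia. The median of the 14 without the block was -0.05 in neurons and -0.08 in glia.

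Of 16 interneuron genes, edgeR called 0 in either fraction without the block, and 0 had an unadjusted p below 0.05. With the block Gad1 (0.61, FDR = 0.0510) and Gad2 (0.60, FDR = 0.0991) rose and Nos1 (-0.66, FDR = 0.0915) fell in neurons by edgeR, beside 3.19% and 1.90% of all genes. In glia Gad1 rose (0.87, FDR = 0.0188) and Nos1, Reln and Ndnf fell with the block, beside 2.93% and 2.86% of all genes. Reln and Ndnf had higher sham means in glia (368 and 145 CPM) than in neurons (74.4 and 15.5 CPM). For Gad1 the sham mean was lower in glia (34.2 CPM) than in neurons (151 CPM). Which cells of the glia fraction carried Reln and Ndnf was not tested. Sst, whose peptide shares many interneurons with neuropeptide Y, had a log2 difference of 0.17 in neurons without the block and 0.56 with it (FDR = 0.251). The median of the 16 was 0.10 in neurons and -0.13 in glia.

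Among 8 genes typical of dentate granule cells, edgeR called 0 in neurons without the block, where 3 had an unadjusted p below 0.05 (2.09% of all genes did), and 7 fell with it (1.90% of all genes did). They were Plk5 (-2.93, FDR = 1.85e-11), Tdo2, Lct, Calb1, Dsp, C1ql2 and Dock10, with log2 differences from -2.93 to -0.65. Prox1, the transcription factor that defines these cells, measured 153 CPM in kainate neurons and 155 CPM in sham neurons (log2 difference -0.02). In glia Plk5 and Calb1 fell with the block, 2 of 8 beside 2.86% of all genes. The median of the 8 without the block was -1.002 in neurons, beside -1.05 for Npy1r and -1.10 for Npy2r, and -0.42 in glia. The part of this movement in the values of the receptors was not tested.

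Of 10 genes of pyramidal and mossy cells, edgeR called 0 without the block and 0 had an unadjusted p below 0.05 in either fraction. With it Fibcd1, a CA1 gene, fell in neurons (-0.69, FDR = 0.0364) by edgeR, beside 1.90% of all genes. In glia 0 were called with it. The median of the 10 was -0.04 in neurons and 0.00 in glia.

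**Figure D4:**
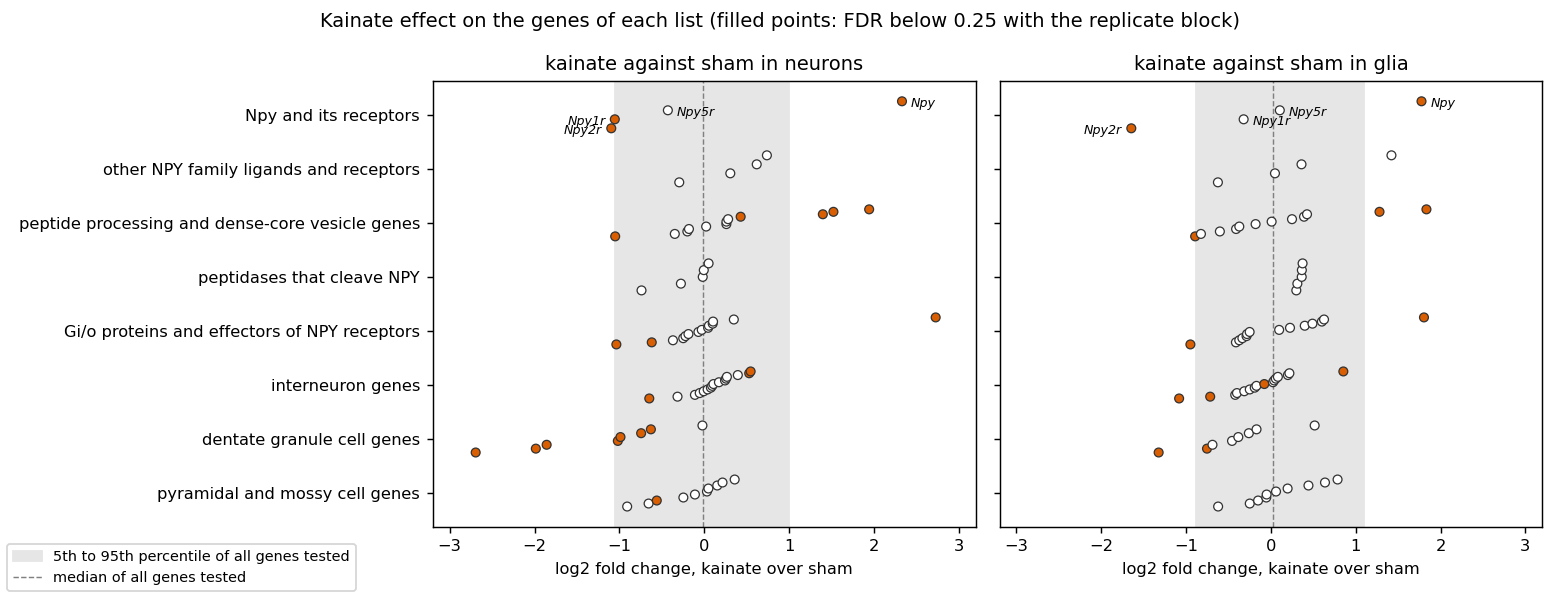
Log2 fold changes without the block (kainate over sham) of Npy and its receptors and of each list, in neurons (left) and glia (right). Each point is a gene, filled where the FDR was below 0.25 with the replicate block, the grey band spans the 5th to 95th percentile of all genes tested and the dashed line is their median. In neurons 7 of 8 granule cell genes are filled on the low side and Npy and Rgs4 lie far to the right.

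Across the 11 libraries the receptors followed each other more closely than they followed the ligand. Pearson's r of log2 CPM was 0.959 between Npy1r and Npy2r, 0.955 between Npy1r and Npy5r and 0.898 between Npy2r and Npy5r. Between Npy and a receptor r ran from 0.358 to 0.524. The libraries share the difference between fractions, the treatment and the pools, so these values describe the set and carry no test.

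By the same measure over 24721 genes with a mean of at least 1 CPM, the genes most like Npy were Klf10 (r = 0.984), Arc, Penk, Nptx2 and Ier5 (r = 0.972). Penk encodes the opioid peptide precursor proenkephalin. Genes most like Npy1r included Gabrd, which encodes a GABA receptor subunit (r = 0.993), Raver2, Gpr12 and Mgat4c (r = 0.984). Those most like Npy2r were Stum (r = 0.991), Gm5577, the potassium channel gene Kcnc2, Decr2 and Carmil3 (r = 0.983). Those most like Npy5r were 4930447C04Rik (r = 0.983), Gm12027, Mas1, Homer2 and Cdh9 (r = 0.978). The log2 kainate differences of the 5 genes like Npy ran from 1.76 to 3.46 in neurons, and those of the 4 genes named for Npy1r from -1.47 to -0.51, without the block. They ran from -0.62 to -0.26 for the genes like Npy2r and from -0.66 to -0.09 for those like Npy5r. The genes were chosen over the same kainate and sham libraries, so a shared difference is partly built in.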

How the data were processed

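Expression was measured in 11 mRNAseq libraries of sorted nuclei. The 11 bisulfite samples were not used. The deposited values are raw counts: the authors used Trim Galore 0.4.3 for trimming, Rsubread for alignment and its featureCounts function to count reads that map uniquely, with GENCODE M16 (mm10) as annotation. The libraries (SMART-Seq v4) carry neither strand nor molecular identifiers, so PCR duplicates stay in the counts. Which library ran on which sequencer is not given in the sources used here. Libraries were grouped by treatment, NeuN label and replicate number, and no 2 libraries of a group agreed within sampling noise. The extraction protocol names the right hippocampi, whereas the sample titles, the design text and the study's methods give the left.

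Genes without a symbol (105) and those below the limits of filterByExpr in edgeR (a count of 10 and a total of 15) were removed. Counts were scaled by TMM. One quasi-likelihood model of edgeR (legacy=TRUE), with a mean for each of the 4 groups, held all 11 libraries, with Benjamini-Hochberg adjustment over 40714 genes in each comparison and a threshold of FDR below 0.25. The study's methods describe both fractions as analysed separately, and a fit per fraction was an alternative. The common biological coefficient of variation was 0.600 without and 0.251 with the replicate block. Residual degrees of freedom were 7 without and 3 with that block. The prior ones, estimated over all genes, were 6.76 and 48.0, so p-values with the block rest mostly on the prior. RPKM used exon lengths of GENCODE M21, which is on the same build. Promoter sequences are from RefSeq (GRCm38.p6), which matched all 4 genes. The windows of Npy1r and Npy5r are not printed because they reach into the GENCODE gene. R was version 4.3.3, with edgeR 4.0.16 and DESeq2 1.42.0, and limma 3.58.1 underlay edgeR.

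The pairing comes from the replicate number in the labels. Deviations from group means correlated between same-numbered kainate and sham libraries by 0.643, 0.161 and 0.491 in neurons and by 0.760 and 0.787 in glia, and between the fractions of a pool by 0.240 to 0.668. The number within a fraction, or the pool, was then added as a block. Only glia numbers 1 and 3 form pairs, and the libraries of number 1 differ in RNA input.

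Named were the 4 genes, the other family genes, the called members of each further list or otherwise its leading genes by mean CPM, the 5 genes most correlated with each of the 4, and 6 sorting markers. For Npy1r, 1 of these 5 is not reported here. List genes called only with the block, Pam, Sst, Dpp4 and Prox1 were picked once values had been seen. The genes and lists were chosen with earlier results of these data known. Alternatives were DESeq2's size factors and Wald test, other filters on low counts, edgeR's newer method, FDR below 0.05, low RNA input as a covariate or left out, each library left out, and, added after the data were seen, all 4 libraries numbered 1 left out. The fits were also run on simulated counts, drawn independently per library with no effect shared by replicate number and no difference between fractions. That simulation could not test whether the block is valid.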

Additional observations from a re-analysis of the deposited data

How the results depend on the processing

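With 3 pools per group, or 2 in sham glia, the intervals above set what could be seen. With the replicate block, the members called were 3 in neurons and 2 in glia, with log2 differences of 2.64 for Npy, -1.11 for Npy1r and -1.11 for Npy2r in neurons and 2.14 for Npy and -1.84 for Npy2r in glia. The block, or the pool as a block, changed no other call of the 4 genes. Without the 4 libraries numbered 1, 3 were called in neurons (Npy 2.95, Npy1r -1.23, Npy2r -1.03) and 1 in glia (Npy 2.55). In neurons DESeq2's Wald test called 1 gene (Npy 2.35, FDR = 0.0186) and the separate fit per fraction called 1 (Npy 2.38, edgeR FDR = 0.186). Without both low-input libraries the Npy effect in neurons minus glia became -0.60 and Npy5r in glia -0.20. Npy between neurons and glia in sham was not called with low input as a covariate (2.05, edgeR FDR = 0.313) or at FDR below 0.05 (1.92).

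With each library left out in turn, 0 to 1 of the 4 genes were called in neurons and 0 to 1 in glia. Npy in neurons ran from 1.89 to 3.47 and was called in 3 of 11 such fits, without sham neurons replicate 1 (3.47), sham glia replicate 1 (2.33) or sham glia replicate 3 (2.33), where 0.111%, 0.380% and 0.413% of genes were called. In the fits with 1 sham glia library, its spread is assumed to equal that of the other groups. Npy in glia ran from 1.20 to 2.72 and was never called. Npy1r ran from -1.64 to -0.57 in neurons and from -0.69 to -0.16 in glia. Npy2r ran from -1.67 to -0.38 in neurons, the latter without sham neurons replicate 1, and from -1.89 to -1.34 in glia, called in 1 fit, without sham glia replicate 3, in which 6.59% of all genes were called in glia. Npy5r ran from -0.89 to 0.15 in neurons, turning without sham neurons replicate 1, and from -0.45 to 0.55 in glia, turning without kainate glia replicate 3 (-0.45) or sham glia replicate 1 (-0.21). Of the effects in neurons minus glia, Npy ran from -0.38, without sham glia replicate 1, to 1.70, Npy1r from -1.32 to -0.25, Npy2r from -0.022, without kainate neurons replicate 1, to 1.26, and Npy5r from -0.997 to 0.048, without sham neurons replicate 1. Between neurons and glia in sham, Npy ran from 0.78 to 2.88, Npy1r from 2.49 to 3.22, Npy2r from 2.44 to 3.47 and Npy5r from 1.84 to 2.87. The cause of these changes was not tested.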
